A study of Arabidopsis thaliana with 12 samples.

Results

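The genes described here encode the enzymes that take sucrose and hexoses down to pyruvate: sucrose synthase, UDP-glucose pyrophosphorylase, hexokinase, and the glycolytic steps from phosphoglucose isomerase to pyruvate kinase. The list held 58 loci in 14 steps and was chosen by enzyme function. A locus entered where the array annotation, or else the study's supplementary table of called genes, gave it a probe set of its own, and 18 of 58 loci did, over 10 steps. The annotation named 16 of them. *PFK6* and *FBA5* were named only through the table of called genes, so that both were certain to have changed in that study's own comparisons, and the counts over all 18 are also given for the other 16. A further 4 pyruvate kinase loci were read only by 2 probe sets that each match a pair of them, and 36 loci were not analysed here. No sucrose synthase, UDP-glucose pyrophosphorylase, hexokinase or phosphoglycerate mutase was among the 18, and the label of sucrose cleavage is therefore not covered: the values run from phosphoglucose isomerase to pyruvate kinase. Of the 18, *PGK2* encodes a plastid enzyme, AT3G49160 has no assigned compartment, and the other 16 are cytosolic.

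The study measured transcripts with Affymetrix ATH1 arrays in whole siliques of *Arabidopsis thaliana* Col-0 (WT) and of plants that express the endogenous class-1 hemoglobin gene *AtHb1* from the seed-specific LeB4 promoter, a homozygous T3 line (AtHb1 plants). All plants were 45 days old and their siliques were at 11 to 12 days after pollination, in mid seed maturation. Intact plants were held in darkness for 1 hour under 21% oxygen (control) or 10.5% oxygen (hypoxia), so that the darkness was shared by all groups. Each of the 4 groups held 3 arrays, labelled as biological replicates from repeated treatment runs, with 70 to 80 siliques pooled in each. The AtHb1 arrays came from 1 transgenic line, so that the line and the transgene cannot be told apart. Siliques contain seeds and pod wall together, and in such bulk tissue fewer cells of a type and less RNA per cell cannot be told apart.

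Glycolysis splits hexose phosphates into triose phosphates and oxidises these to pyruvate, with a net gain of ATP and NADH. When oxygen limits respiration, plant cells depend on this ATP, and fermentation of pyruvate to ethanol or lactate regenerates the NAD that the pathway needs. Plants have an additional entry into the pathway through a phosphofructokinase that uses pyrophosphate in place of ATP, and a bypass by a non-phosphorylating glyceraldehyde phosphate dehydrogenase. Developing Arabidopsis seeds run glycolysis in both cytosol and plastid, and its products feed oil synthesis.

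The *AtHb1* probe set was named only through the table of called genes, so that it is not an independent check of the labels. It read 6.14, 5.99 and 5.88 in WT control and 9.06, 9.07 and 9.14 in WT hypoxia arrays. In AtHb1 plants it read 10.48, 12.06 and 11.93 under control conditions and 10.65, 10.38 and 11.12 under hypoxia, above every WT array, with replicate 1 of the control group below the other 2. Arrays of one group correlated at 0.993 to 0.998 over all probe sets. The difference between the 3′ and 5′ signal of the GAPDH control probe sets, a sign of RNA integrity or labelling, was 1.02 and 1.16 on the log2 scale in WT control and WT hypoxia and 1.77 and 1.85 in AtHb1 control and AtHb1 hypoxia. That of the actin control probe sets was 2.78 and 2.85 in the WT groups, and in AtHb1 plants 3.26 (range 3.17 to 3.38) under control and 3.88 (range 3.83 to 3.91) under hypoxia. That of ubiquitin was 1.27 and 1.29 in the WT groups, and in AtHb1 plants 1.53 under control and 1.56 under hypoxia. A list of 5 late seed maturation genes, all read, averaged a log2 signal of 6.68 under control and 7.94 under hypoxia in WT, and in AtHb1 plants 8.59 under control (range 7.40 to 9.22) and 7.15 under hypoxia. The seed coat gene *BAN*, the only 1 of 4 seed coat markers read, had means of 12.08, 12.43, 11.18 and 11.36 in the same order. None of 10 seed storage and none of 8 photosynthetic marker genes was given a probe set by the annotation or the table of called genes. Of the late seed maturation genes, *EM6* and *EM1* were named only through the table of called genes, so that their changes are not independent evidence. The WT control arrays averaged 6.08 to 6.99 over this list. With hypoxia in WT its log2 changes were 2.36 (*EM1*), 2.01 (*LEA76*), 1.61 (*LEA4-5*), 0.37 (*EM6*) and −0.05 (*RAB28*).

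In WT siliques, hypoxia raised *PFK6* and *FBA5* by more than 2-fold, and no other measured glycolytic gene reached that size. In AtHb1 siliques only *PFK6* did. Here a gene is said to have risen or fallen where the limma fit over all probe sets gave a Benjamini-Hochberg adjusted p under 0.05, and it is called where its log2 change also exceeded 1. By that rule 2 of 18 genes were called in WT, where 1.82% of all 22746 probe sets were, and 1 of 18 in AtHb1 plants, where 1.12% were. Among the 16 genes named by the annotation the count was 0 in both, and 0 in every other comparison. By adjusted p alone, hypoxia raised 3 genes and lowered 1 in WT (22.2% of the 18, against 15.8% of all probe sets, 8.7% higher and 7.13% lower). Of the 16 genes named by the annotation 1 rose and 1 fell (12.5%), so that the share above background came from *PFK6* and *FBA5*. Hypoxia raised 3 and lowered 0 in AtHb1 plants (16.7%, against 22.1%, 12.6% higher and 9.51% lower), and 2 of the 16 (12.5%). With each array centred on its median, these splits became 3 higher and 3 lower in WT, and 2 higher and 1 lower in AtHb1 plants. The median log2 change of the 16 was −0.03 in WT, as over all probe sets, and 0.13 in AtHb1 plants, against 0.00. With *PFK6* and *FBA5* the medians were 0.02 and 0.15.

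**Figure D1:**
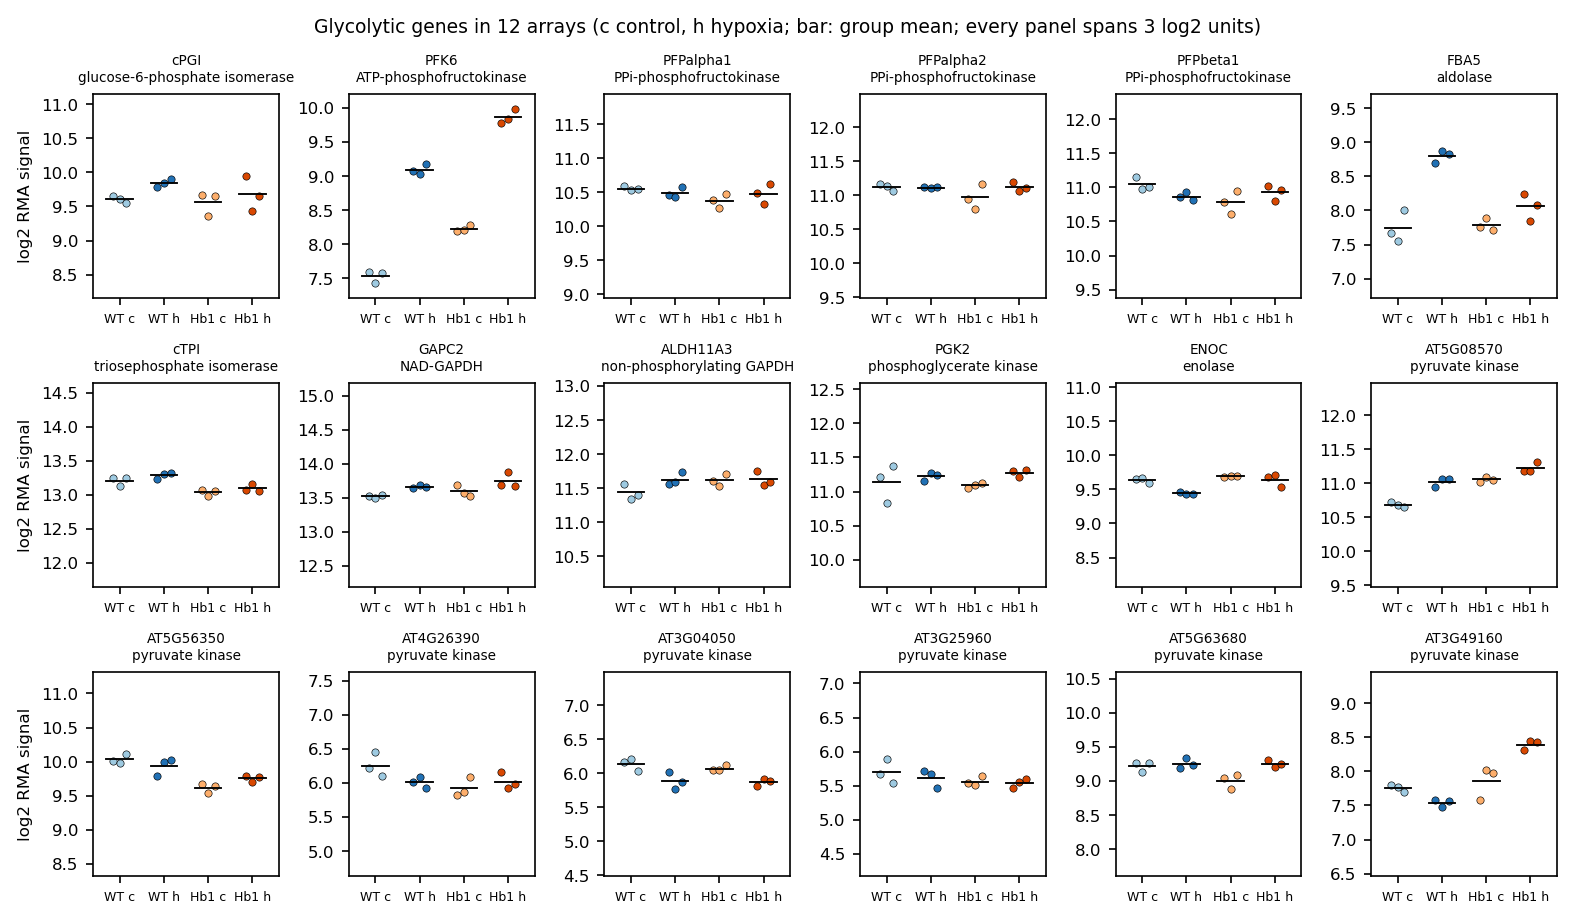
Log2 signal (vertical axis) of each of the 18 glycolytic genes in the 12 arrays, 1 panel per gene, each spanning 3 log2 units, with points for single arrays in the 4 groups and bars for group means. The 4 groups of *PFK6* are separate, with means of 7.53 and 9.10 in WT under control and hypoxia and 8.23 and 9.86 in AtHb1 plants.

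Phosphoglucose isomerase interconverts glucose and fructose phosphates, and its cytosolic gene AT5G42740 (*cPGI*) read 9.66, 9.61 and 9.56 in WT control and 9.78, 9.84 and 9.91 in WT hypoxia arrays. In AtHb1 plants the control arrays read 9.68, 9.36 and 9.65 and the hypoxia arrays 9.95, 9.43 and 9.65. The WT groups did not overlap and the AtHb1 groups did. The log2 difference was 0.24 in WT (95% interval −0.01 to 0.49) and did not pass the test (limma, adjusted p = 0.193).

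*PFK6* (AT4G32840) encodes a cytosolic ATP-dependent phosphofructokinase, which phosphorylates fructose phosphate at the step that commits hexose to glycolysis. Its log2 signal was 7.59, 7.43 and 7.57 in WT control and 9.08, 9.03 and 9.18 in WT hypoxia. It was 8.19, 8.21 and 8.28 in AtHb1 control and 9.77, 9.83 and 9.99 in AtHb1 hypoxia. No array of any group overlapped with another group, and AtHb1 control lay between WT control and WT hypoxia. Hypoxia raised *PFK6* 2.96-fold in WT (log2 1.56, SE 0.08, limma adjusted p = 4.27e-09) and 3.11-fold in AtHb1 plants (log2 1.64, adjusted p = 3.69e-09). The AtHb1 plants had 1.62-fold more signal under control conditions (log2 0.69, adjusted p = 1.47e-05) and 1.70-fold more under hypoxia (log2 0.77, adjusted p = 6.92e-06). The hypoxia response itself differed between the genotypes by 0.07 on the log2 scale, with an interval of −0.16 to 0.31. Treatment accounted for 82.2% of the gene's sum of squares over the 12 arrays, genotype for 17.2% and the spread between replicates for 0.58%. Over all probe sets the median shares were 11.3% for treatment and 26.9% for genotype. As *PFK6* was named only through the table of called genes, its shares are not independent evidence of a change.

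The pyrophosphate-dependent phosphofructokinase consists of regulatory alpha and catalytic beta subunits and works at the same step in both directions. Its beta subunit gene AT1G12000 (*PFPbeta1*) read 11.15, 10.97 and 11.01 in WT control and 10.86, 10.93 and 10.82 in WT hypoxia arrays, and 10.78, 10.61 and 10.95 in AtHb1 control and 11.02, 10.80 and 10.96 in AtHb1 hypoxia arrays. AtHb1 control was below WT control in every array, by 0.26 on the log2 scale (adjusted p = 0.0388). Without AtHb1 control replicate 2 the difference was −0.18 (adjusted p = 0.185). The alpha subunit genes AT1G20950 and AT1G76550 passed no test. They spanned log2 signals of 10.27 to 10.63 and 10.80 to 11.19.

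Cytosolic aldolase cleaves fructose bisphosphate into triose phosphates. The gene *FBA5* (AT4G26530) read 7.67, 7.56 and 8.00 in WT control and 8.70, 8.87 and 8.83 in WT hypoxia. In AtHb1 plants it read 7.76, 7.89 and 7.72 under control conditions and 8.25, 7.84 and 8.09 under hypoxia. The WT hypoxia arrays were above all other 9, and the AtHb1 groups overlapped. Hypoxia raised *FBA5* 2.08-fold in WT (log2 1.06, SE 0.12, adjusted p = 1.77e-05), whereas in AtHb1 plants the log2 difference was 0.27 (interval 0.02 to 0.52, adjusted p = 0.115). The log2 change in WT was 0.99 after repeated quantile normalisation or median centring and 0.96 without WT control replicate 2, under the 2-fold limit in each case. The late seed maturation list averaged 6.68 and 7.94 in WT control and hypoxia, and 8.59 and 7.15 in AtHb1 control and hypoxia. In the same order *FBA5* averaged 7.74, 8.80, 7.79 and 8.06. The part of seed stage in the *FBA5* values was not tested. As *FBA5* was named only through the table of called genes, its response and its genotype differences are not independent evidence.

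Triosephosphate isomerase interconverts both triose phosphates, and its cytosolic gene *cTPI* (AT3G55440) read 13.24, 13.13 and 13.25 in WT control and 13.23, 13.30 and 13.32 in WT hypoxia arrays, and 13.07, 12.98 and 13.06 in AtHb1 control and 13.07, 13.15 and 13.05 in AtHb1 hypoxia arrays. Every AtHb1 array was below the WT arrays of the same treatment. The difference passed the test under hypoxia (log2 −0.19, adjusted p = 0.036) and not under control conditions (interval −0.32 to −0.03, adjusted p = 0.0656).

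Of the triose oxidising steps, none of the measured genes changed with hypoxia. *GAPC2* (AT1G13440), a cytosolic glyceraldehyde phosphate dehydrogenase, read 13.53, 13.50 and 13.54 in WT control and 13.64, 13.68 and 13.66 in WT hypoxia arrays, and 13.69, 13.56 and 13.53 in AtHb1 control and 13.69, 13.88 and 13.67 in AtHb1 hypoxia arrays. The WT groups did not overlap, and the hypoxia differences of 0.13 in WT and 0.15 in AtHb1 plants on the log2 scale did not pass the test. *ALDH11A3* (AT2G24270), the non-phosphorylating dehydrogenase that yields NADPH, read 11.57, 11.35 and 11.39 in WT control and 11.56, 11.59 and 11.74 in WT hypoxia arrays, and 11.61, 11.53 and 11.71 in AtHb1 control and 11.75, 11.54 and 11.59 in AtHb1 hypoxia arrays. Its groups overlapped in each genotype.

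Phosphoglycerate kinase makes the first ATP of the pathway. The plastid gene *PGK2* (AT1G56190) read 11.21, 10.83 and 11.37 in WT control and 11.15, 11.27 and 11.24 in WT hypoxia arrays, and 11.05, 11.10 and 11.13 in AtHb1 control and 11.30, 11.21 and 11.32 in AtHb1 hypoxia arrays. The spread within WT control spanned the values of the other groups, and no comparison passed the test. Enolase forms phosphoenolpyruvate, and *ENOC* (AT2G29560) read 9.65, 9.67 and 9.59 in WT control and 9.46, 9.43 and 9.44 in WT hypoxia arrays, and 9.68, 9.69 and 9.70 in AtHb1 control and 9.68, 9.71 and 9.53 in AtHb1 hypoxia arrays. The WT hypoxia arrays were the 3 lowest of the 12. The difference in WT did not pass the test (log2 −0.19, adjusted p = 0.0641), and the AtHb1 plants exceeded WT under hypoxia by 0.20 (adjusted p = 0.0295).

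Pyruvate kinase transfers the last phosphate of the pathway to ADP. It was the step with the most genes read, 7 of their own and 4 through shared probe sets. Under hypoxia in WT, 1 of the 7 rose, 1 fell and 5 did not pass the test, with log2 changes of −0.25 to 0.34. Of all probe sets 8.7% rose and 7.13% fell in WT. In AtHb1 plants 2 rose, 0 fell and 5 did not pass, with changes of −0.20 to 0.54, where 12.6% of all probe sets rose and 9.51% fell.

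AT3G49160, which is annotated as a pyruvate kinase family gene, read 7.80, 7.77 and 7.70 in WT control and 7.58, 7.48 and 7.56 in WT hypoxia. In AtHb1 plants it read 7.57, 8.02 and 7.98 under control conditions and 8.31, 8.45 and 8.43 under hypoxia. The 3 AtHb1 hypoxia arrays were the highest of the 12, and AtHb1 control replicate 1 was below the other 2 of its group. The gene rose with hypoxia in AtHb1 plants (log2 0.54, SE 0.10, adjusted p = 0.0021). In WT the log2 difference was −0.22 (adjusted p = 0.168). Under hypoxia it was higher in AtHb1 than in WT plants by 0.85 (interval 0.64 to 1.07, adjusted p = 2.3e-05). Without AtHb1 control replicate 1 the response in AtHb1 plants was 0.40 (adjusted p = 0.0048).

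The cytosolic pyruvate kinase gene AT5G08570 averaged a log2 signal of 10.68 ± 0.04 under control and 11.02 ± 0.06 under hypoxia in WT (SD, n = 3). In AtHb1 plants the means were 11.05 ± 0.04 and 11.22 ± 0.08. It rose with hypoxia in WT by 0.34 (adjusted p = 0.00297), and in AtHb1 plants the difference was 0.16 (adjusted p = 0.0977). The AtHb1 plants exceeded WT by 0.37 under control conditions (adjusted p = 0.000758). AT5G56350 went the other way, with a value 0.42 lower in AtHb1 control than in WT control on the log2 scale (log2 −0.42, adjusted p = 0.000813). The remaining differences that passed were small. AT3G04050 fell in WT hypoxia (log2 −0.25, adjusted p = 0.0475), AT5G63680 rose in AtHb1 hypoxia (0.25, adjusted p = 0.0325), and AT4G26390 and AT5G63680 were lower in AtHb1 control than in WT control (−0.33 and −0.21). AT3G25960 had a mean log2 signal below 6 in every group, near the dim end of the arrays, and passed no test. AT3G04050 and AT4G26390 were also dim, with group means of 5.87 to 6.14 and of 5.93 to 6.26.

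The probe set shared by AT3G52990 and AT2G36580, which does not tell these genes apart, read 10.63, 10.98 and 10.73 in WT control and 10.81, 10.82 and 10.84 in WT hypoxia arrays, and 10.12, 10.01 and 10.12 in AtHb1 control and 10.40, 10.21 and 10.28 in AtHb1 hypoxia arrays. All 6 AtHb1 arrays were below all 6 WT arrays. The genotype difference was −0.70 under control conditions (adjusted p = 4.11e-05) and −0.53 under hypoxia (adjusted p = 0.000325). The probe set shared by AT3G55650 and AT3G55810 stayed between 4.29 and 4.53 in all arrays.

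**Figure D2:**
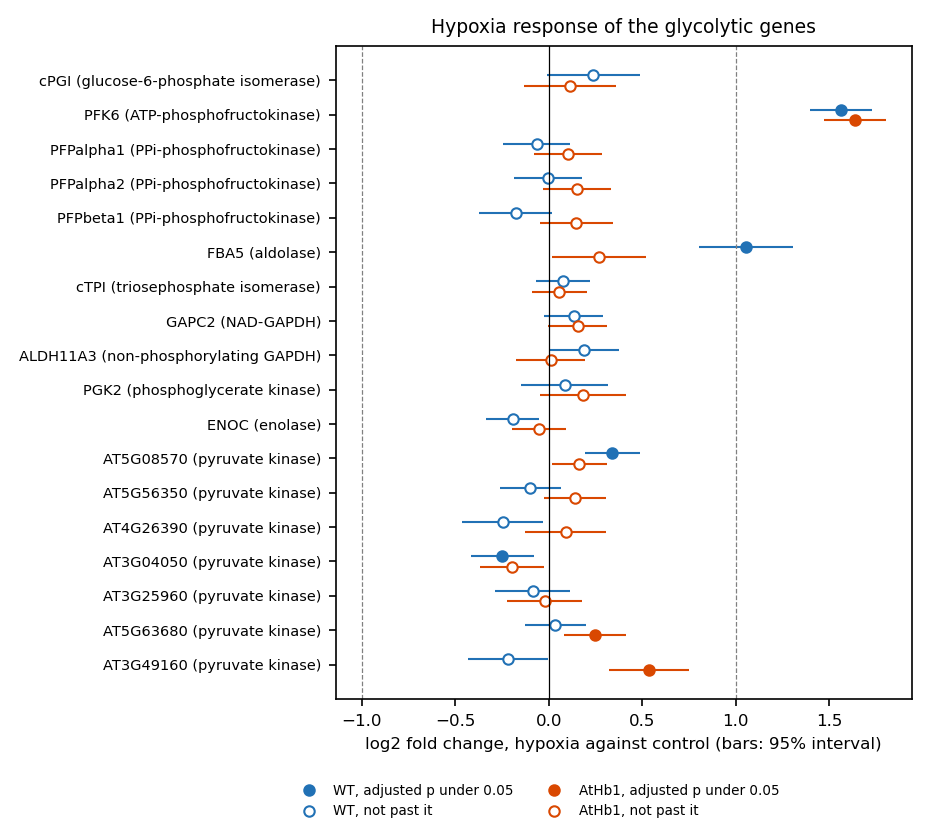
Log2 fold change of hypoxia against control (horizontal axis) for the 18 genes, WT in blue and AtHb1 plants in orange, with 95% intervals as bars, filled points for an adjusted p under 0.05 and dashed lines at the 2-fold limit. *PFK6* stands apart in both genotypes (1.56 and 1.64) and *FBA5* in WT (1.06).

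For the genes that did not pass, the data bound the change in array signal. The 95% intervals of the 14 such genes in WT hypoxia lay between −0.46 and 0.49 on the log2 scale, and those of the 15 in AtHb1 hypoxia between −0.37 and 0.52. A 2-fold change in signal was thus outside the interval of each of them. Whether the signal of dim probe sets, such as those of AT3G25960 and AT4G26390, follows the transcript level was not tested. The hypoxia and control groups did not overlap for 10 of 18 genes in WT, where 36.2% of all probe sets did not overlap. In AtHb1 plants they did not for 7 of 18, where 36% of all probe sets did not. Among the 16 genes named by the annotation the counts were 8 and 6. The 3′ to 5′ difference of actin was also higher under hypoxia in AtHb1 plants. That of GAPDH was 1.77 under control and 1.85 under hypoxia there, and that of ubiquitin 1.53 and 1.56. The part of these differences in the hypoxia response of AtHb1 plants was not tested.

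No estimated difference between AtHb1 plants and WT reached 2-fold at either oxygen level. Under control conditions *PFK6* and AT5G08570 were higher and 4 genes (*PFPbeta1*, AT5G56350, AT4G26390 and AT5G63680) were lower, 33.3% of the 18 against 33.2% of all probe sets (17.5% higher and 15.7% lower). Under hypoxia *PFK6*, *ENOC*, AT5G08570 and AT3G49160 were higher and *FBA5* and *cTPI* lower, 33.3% against 40.6% (22.3% higher and 18.3% lower). Of the 16 genes named by the annotation, 1 was higher and 4 were lower under control conditions, and 3 were higher and 1 was lower under hypoxia. None of the 18 was called in either comparison, where 2.17% and 1.74% of all probe sets were. Unadjusted p was under 0.05 for 7 genes in each, and the share of all probe sets at that limit was not computed. With each array centred on its median, 2 genes were higher and 6 lower under control conditions, and 2 higher and 3 lower under hypoxia. Without AtHb1 control replicate 1, 3 were higher and 1 lower under control conditions, and without WT hypoxia replicate 1, 2 were higher and 3 lower under hypoxia. The groups did not overlap for 9 and 7 of 18 genes, against 46.4% and 50.9% of all probe sets, and for 8 and 5 of the 16. The 3′ to 5′ difference of the control probe sets was larger in both AtHb1 groups, and its part in these genotype differences was not tested.

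**Figure D3:**
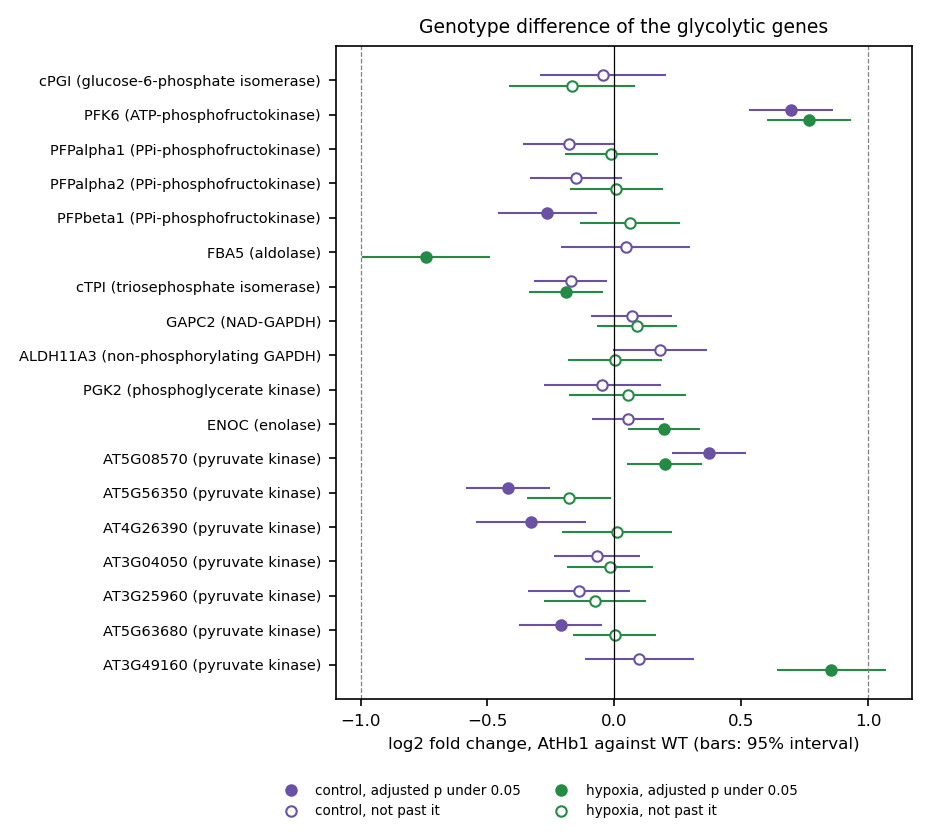
Log2 fold change of AtHb1 plants against WT (horizontal axis) for the 18 genes, control in purple and hypoxia in green, with 95% intervals as bars and filled points for an adjusted p under 0.05. *PFK6* is higher in both treatments (0.69 and 0.77), *FBA5* lower and AT3G49160 higher under hypoxia (−0.74 and 0.85).

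The test of the difference between the genotypes' hypoxia responses passed for 2 of 18 genes (11.1%, against 12.3% of all probe sets, 6.98% positive and 5.3% negative), and none was called, where 2% of all probe sets were. Of the 16 genes named by the annotation 1 passed (6.25%). *FBA5* responded less in AtHb1 plants, by 0.79 on the log2 scale (log2 −0.79, SE 0.17, interval −1.14 to −0.43, adjusted p = 0.00759). As *FBA5* was named only through the table of called genes, this test is not independent evidence of a difference. AT3G49160 responded more (log2 0.76, SE 0.14, interval 0.45 to 1.06, adjusted p = 0.00378). The intervals of the other 16 genes lay between −0.47 and 0.65. The actin 3′ to 5′ difference was 3.26 under control and 3.88 under hypoxia in AtHb1 plants, against 2.78 and 2.85 in WT. That of GAPDH was 1.77 and 1.85, against 1.02 and 1.16, and that of ubiquitin 1.53 and 1.56, against 1.27 and 1.29. The part of RNA integrity or labelling in the differences of *FBA5* and AT3G49160 was not tested. Both genotype comparisons and both hypoxia comparisons use the same arrays, so that their values are set side by side and no overlap between them is given.

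**Figure D4:**
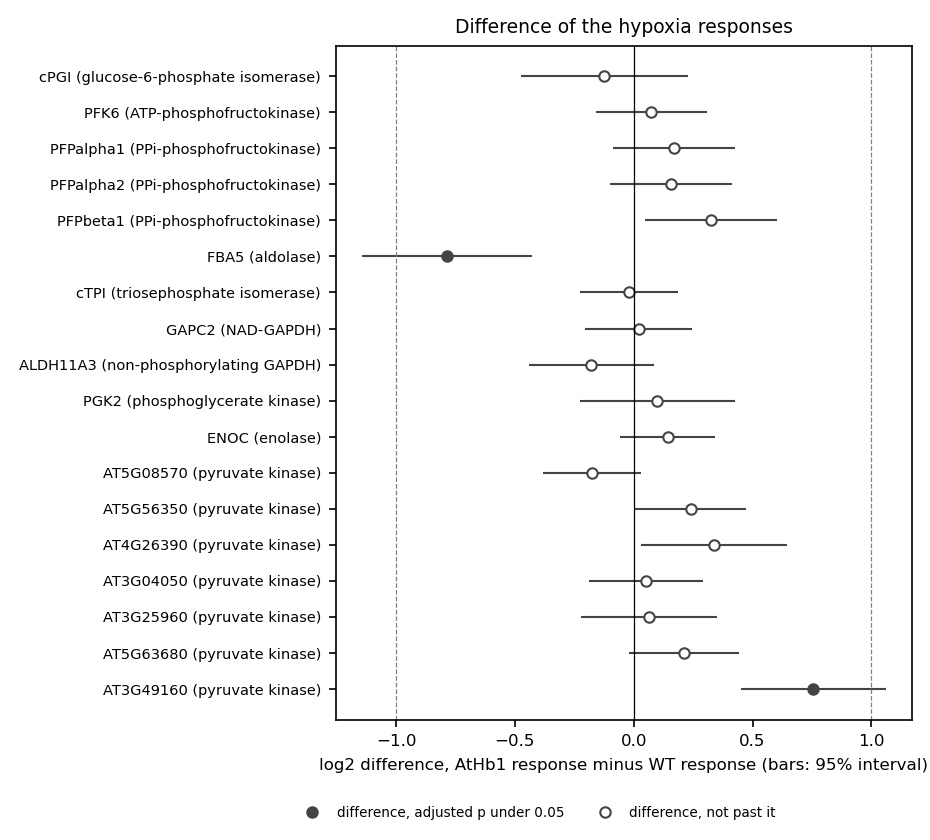
Difference between the hypoxia response of AtHb1 plants and that of WT (horizontal axis, log2) for the 18 genes, with 95% intervals as bars and filled points for an adjusted p under 0.05. Only *FBA5* (−0.79) and AT3G49160 (0.76) pass the test, and *FBA5* was named only through the table of called genes.

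Neighbouring reactions were read from a list of 37 loci, of which 13 had a probe set of their own. Of 6 fermentation genes 4 were read, and all 4 rose with hypoxia in both genotypes. Of all probe sets 8.7% rose in WT and 12.6% in AtHb1 plants. Only *PDC2* and *LDH1* of these fermentation genes were named by the annotation. The pyruvate decarboxylase gene *PDC1*, which opens ethanol fermentation, read 8.66, 8.64 and 8.33 in WT control and 12.25, 12.42 and 12.35 in WT hypoxia arrays, and 9.29, 9.19 and 9.35 in AtHb1 control and 13.01, 12.79 and 12.87 in AtHb1 hypoxia arrays. The alcohol dehydrogenase gene *ADH1*, which completes it, read 9.86, 9.51 and 9.47, then 12.50, 12.47 and 12.47, then 10.44, 10.40 and 10.50, then 12.63, 12.46 and 12.59 in the same groups. Hypoxia raised *PDC1* by 3.80 in WT and 3.61 in AtHb1 plants on the log2 scale, and *ADH1* by 2.87 and 2.12 (limma, all adjusted p at most 1.83e-09). As with *PFK6*, the AtHb1 control arrays of both lay between the WT control and WT hypoxia arrays. Both were named only through the study's table of called genes, so that their calls are not independent evidence.

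*PDC2*, the other pyruvate decarboxylase gene read, rose by 0.52 in WT and 0.99 in AtHb1 plants, and the lactate dehydrogenase gene *LDH1* by 0.48 and 0.75 on the log2 scale. Of the fructokinase genes, which phosphorylate the fructose freed from sucrose, 6 of 7 were read. AT2G31390 read 11.11, 11.20 and 11.32 in WT control and 11.91, 12.04 and 12.03 in WT hypoxia arrays, and 11.26, 11.23 and 11.14 in AtHb1 control and 12.27, 12.49 and 12.49 in AtHb1 hypoxia arrays. It rose by 0.79 in WT (adjusted p = 9.31e-06) and by 1.21 in AtHb1 plants (adjusted p = 2e-07). It was the only gene named by the annotation, on either list, that was called in a hypoxia comparison. Of 8 genes of gluconeogenesis and phosphoenolpyruvate metabolism 2 were read, and of 4 sucrose synthesis genes 1. The pyruvate phosphate dikinase gene *PPDK* and the sucrose phosphate synthase gene *ATSPS4F* fell with hypoxia in AtHb1 plants (adjusted p = 0.00509 and 0.0214) and neither passed the test in WT. Both were higher in AtHb1 control than in WT control (log2 0.32 and 0.57). Under hypoxia the genotype difference was −0.03 for each. Over all 13 neighbouring genes, 6 rose and 0 fell with hypoxia in WT, and 5 rose and 3 fell in AtHb1 plants. Without *PDC1* and *ADH1*, 4 of 11 rose and 0 fell in WT, where 8.7% of all probe sets rose and 7.13% fell, and 3 rose and 3 fell in AtHb1 plants, where 12.6% rose and 9.51% fell. No cytosolic invertase, phosphoglucomutase, further hexokinase or photosynthetic GAPDH gene was given a probe set by the annotation or the table of called genes.

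**Figure D5:**
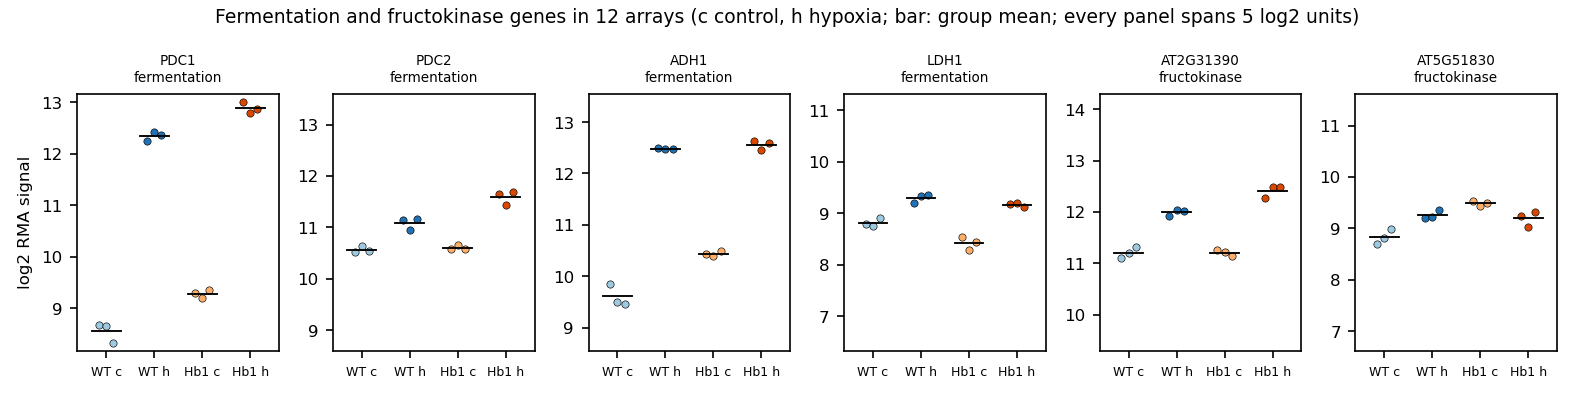
Log2 signal (vertical axis) of 4 fermentation and 2 fructokinase family genes in the 12 arrays, 1 panel per gene, each spanning 5 log2 units, with points for single arrays in the 4 groups and bars for group means. *PDC1*, *ADH1* and AT2G31390 are higher in all hypoxia arrays than in the control arrays of the same genotype.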

How the data were processed

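Siliques of 4 groups with 3 arrays each were compared. The authors processed the arrays with MAS5 and normalised them by RMA, and the deposited values are log2 signals of 22810 probe sets. Control probe sets (64) were left out, and limma 3.58.1 in R 4.3.3 was fitted to the other 22746 with a mean per group and a shared spread, with Benjamini-Hochberg adjustment within each of 5 comparisons. The annotation gave 1 gene to 13436 of these and did not list 8730. The 36 loci to which neither the annotation nor the table of called genes gave a probe set were not analysed here. Whether a probe set that the annotation does not list reads them was not tested. An exact permutation test of 3 against 3 arrays cannot go below p = 0.1 and was not used. Array values are given for called genes and for the gene with the smallest adjusted p of each step, and the shared pyruvate kinase probe set was added after its values were seen. Members, lists and rules were chosen with earlier results of these data known. The procedure was tested on simulated data. Alternatives covered normalisation, weights, dim probe sets, fold limit, block and each array left out. Replicate numbers were not treated as pairs. Levels of different probe sets are not comparable.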

Additional observations from a re-analysis of the deposited data

Results flagged for a closer look

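The hypoxia response differed between the genotypes, by limma's interaction test over all probe sets (adjusted p under 0.05), for 2 of 18 glycolytic genes and 5 of 13 neighbouring genes, and for 12.3% of all probe sets. Without *FBA5* and *ADH1* and the other genes named only through the table of called genes, 1 of 16 and 4 of 11 passed. Values are log2 differences, AtHb1 minus WT. Among the glycolytic genes these were *FBA5* (−0.79) and AT3G49160 (0.76). Among the fermentation genes *ADH1* responded less in AtHb1 plants (−0.75), from a higher control level, and *PDC2* responded more (0.46). The fructokinase family genes AT2G31390 and AT5G51830 differed by 0.42 and −0.71. The latter rose in WT by 0.42 and fell in AtHb1 plants by 0.29. It was 0.65 higher in AtHb1 control than in WT control, and under hypoxia the genotype difference was −0.06. The sucrose phosphate synthase gene *ATSPS4F*, which acts in sucrose synthesis, differed by −0.60. It was 0.57 higher in AtHb1 control than in WT control, and under hypoxia the genotype difference was −0.03. Without AtHb1 control replicate 1, which had the lowest *AtHb1* signal of its group, the value of AT3G49160 was 0.61 (adjusted p = 0.0026).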

How the results depend on the processing

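No glycolytic gene that passed a test and no called neighbouring gene reversed its direction, but the split of higher and lower glycolytic genes between genotypes did turn. Neighbouring genes that passed by adjusted p alone, the flagged differences of responses included, were not checked under the alternatives. Called genes in WT hypoxia numbered 1 after repeated quantile normalisation or median centring and 0 with the genes named only by the study's table left out (1 to 2 with single arrays left out). That omission gave 0 called in AtHb1 hypoxia (1 with each array left out). By adjusted p alone it gave 2 in WT hypoxia and 1 for the difference of responses. Without adjustment the counts by p were 8 in WT hypoxia, 6 in AtHb1 hypoxia and 5 for the difference of responses. At a 1.5-fold limit 1 gene was called between genotypes under control conditions, 3 under hypoxia and 2 for the difference of responses. *PFK6* or *FBA5* was among them each time. The shares of all probe sets under the alternatives were not computed, so that these counts are not read against background. With only the 2 groups compared, 3 genes passed between genotypes under hypoxia. Leaving out single arrays gave 3 to 4 genes by adjusted p in WT hypoxia, 2 to 4 in AtHb1 hypoxia, 3 to 7 between genotypes under control conditions (3 without AtHb1 control replicate 2), 3 to 6 under hypoxia (3 without WT hypoxia replicate 2) and 2 for the difference of responses. The split under control conditions went from 2 higher and 4 lower to 3 and 1 without AtHb1 control replicate 1, and that under hypoxia from 4 and 2 to 2 and 3 without WT hypoxia replicate 1.

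Same-numbered arrays did not deviate together (correlations −0.134 to 0.124), so the numbers were not taken as pairs. With the replicate block, 2, 1, 0, 0 and 0 genes were called and 3, 3, 5, 5 and 2 passed by adjusted p, in the order WT hypoxia, AtHb1 hypoxia, genotypes under control, genotypes under hypoxia and difference of responses. The alternatives were counted over 26 gene and comparison pairs, of glycolytic genes past adjusted p and of called neighbouring genes. Of 552 alternatives, 487 kept the call and 65 lost it. The unadjusted p and the 1.5-fold limit only loosen the rule and could not lose a call. The mean over the probe sets of a locus left the glycolytic genes' values unchanged, as none had over 1 probe set. The kept share is therefore not a measure of robustness. The losses were *FBA5* in WT hypoxia at the fold limit and the smaller differences of AT3G04050, AT5G63680, *PFPbeta1*, AT4G26390, *cTPI*, *ENOC* and AT5G08570 under hypoxia between genotypes. The cause was not tested.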
